A study of Oncorhynchus mykiss with 12 samples.

Results

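The genes described here make and export bile acids in the liver of rainbow trout (Oncorhynchus mykiss) kept for 1 month in water of low oxygen content. They were found by gene symbol among the 42128 rows of the RNA-seq table, from 10 names: CYP7A1, CYP7B1, CYP8B1, CYP27A1, HSD3B7, AKR1D1, AMACR, BAAT, ABCB11 and SLC10A1. The search returned 23 loci, all of them by symbol and 0 by description alone. The hypoxia group was held at a dissolved oxygen of 4.5 ± 0.1 mg/L for 1 month and gave 3 RNA-seq libraries of liver. The control group gave 3 RNA-seq libraries of the same tissue, and its oxygen level is not given in the sources used here. Both groups are labelled wild type, and the labels do not say whether the libraries of a group came from separate fish, so the p-values measure the spread between these libraries, which may be technical. Small RNA libraries of the same design were not used, since they hold no gene of this pathway.

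Bile acids are made from cholesterol in hepatocytes. In the classic route CYP7A1 hydroxylates cholesterol itself, and in the alternative route CYP27A1 first oxidises the side chain and CYP7B1 then acts on the resulting oxysterol. HSD3B7 and AKR1D1 modify the steroid rings, CYP8B1 adds the hydroxyl group that marks cholic acid, AMACR prepares the side chain for shortening in peroxisomes, BAAT couples the product to an amino acid, ABCB11 pumps bile salts into the canaliculus, and SLC10A1 takes them up again from blood. These roles are known mainly from mammals.

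The libraries held 19060468 to 23152833 counts. Along the leading principal component of the tested genes, which carried 44.1% of the variance, the hypoxia libraries lay between -33.19 and -24.94 and control libraries 2 and 3 at 41.75 and 38.65, whereas control library 1 lay apart from its group at 9.57. Liver identity was checked with hepatocyte genes such as albumin, transferrin and transthyretin. Their summed level was 51845 to 57901 FPKM in hypoxia libraries and 50462 to 52813 FPKM in control libraries. FPKM are fragments scaled for transcript length and library size. Of 15 tested loci, 0 were called by edgeR or DESeq2 and 7 had an unadjusted p under 0.05. These 7 went in both directions, and FGB loci 110536443 and 118959894 had identical counts. Over all genes tested, 11.6% were lower and 12.1% higher at an edgeR unadjusted p under 0.05. Bile duct markers summed to 255 to 294 FPKM in hypoxia and 289 to 312 FPKM in control libraries, with 0 of 11 called by either tool. Most of this sum came from krt18 loci 110491902 (mean 86.8 FPKM in hypoxia and 99.0 FPKM in control) and 100136778 (103.6 and 99.98) and ANXA4 110523711 (64.6 and 74.1). The sum thus says little about the less abundant markers. Only KRT19 locus 110485899, described as keratin, type I cytoskeletal 13-like, had an unadjusted p under 0.05. It averaged 1.88 FPKM in hypoxia and 2.98 FPKM in control without overlap (log2 fold change -0.68, edgeR adjusted p = 0.0693). The bile duct channel gene cftr was at or near 0 in every library. Pancreatic markers summed to 3.31 to 26.4 FPKM in hypoxia and 14.0 to 21.5 FPKM in control libraries, and intestinal markers to 14.1 to 19.5 FPKM in hypoxia and 13.4 to 16.3 FPKM in control libraries, with 0 of 10 and 0 of 4 tested loci called by either tool (0 at an unadjusted p under 0.05). Leukocyte markers summed to 177 to 209 FPKM in hypoxia and 175 to 225 FPKM in control libraries, with 0 of 6 called by either tool (1 at an unadjusted p under 0.05). Red blood cell markers were called lower after hypoxia at 13 of 17 tested loci, against 3.39% of all genes tested. Their sums were 466 to 602 FPKM in hypoxia against 891 to 1224 FPKM in control libraries. All the called loci were hemoglobin loci. Not called were hba1 locus 110538449, alas2 (log2 fold change -0.027, edgeR adjusted p = 0.960) and slc4a1 (-0.58 and -0.26, adjusted p = 0.157 and 0.467). Stellate and endothelial markers were called lower at 5 of 14 tested loci. Their sums were 161 to 245 FPKM in hypoxia against 253 to 331 FPKM in control libraries. The called loci were col1a1 and col1a2 loci of collagen I and CDH5 locus 110506352. Not called were other loci of col1a1 and CDH5, pecam1, pdgfrb and kdrl (kdrl log2 fold changes -0.12 and -0.015). The part of these markers in the results below was not tested.

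CYP7A1 transcript was about 0.486 times as abundant after a month of hypoxia as in control liver, and it was the member called by the test. The other enzymes of the steroid nucleus and the export pump ABCB11 had lower means in hypoxia as well, by smaller amounts that did not pass the threshold. The side-chain enzymes Cyp27a1 and amacr had higher means in hypoxia and did not pass either. Of the 10 member loci expressed highly enough to be tested (a mean of at least 0.5 FPKM over the 6 libraries), 1 was called lower and 0 higher by edgeR's quasi-likelihood test at a Benjamini-Hochberg adjusted p under 0.05. Over all 19365 genes tested, 3.39% were called lower and 3.83% higher, 7.22% in all. The log2 fold change of hypoxia over control was negative at 8 of the 10 loci, against 50.5% of all genes tested, and its median was -0.39 over the 10 loci and -0.0046 over all genes tested. At an unadjusted p under 0.05 there were 7 loci, all lower, against 11.6% of all genes tested. In 6 loci every hypoxia library lay below every control library in FPKM, against 13.1% of all genes tested, and in 0 loci every hypoxia library lay above, against 13.9%. The members were chosen with earlier results of these data known, so these contrasts with all genes are not independent of the values. In bulk liver RNA, fewer cells of a type and less RNA per cell cannot be told apart.

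**Figure D1:**
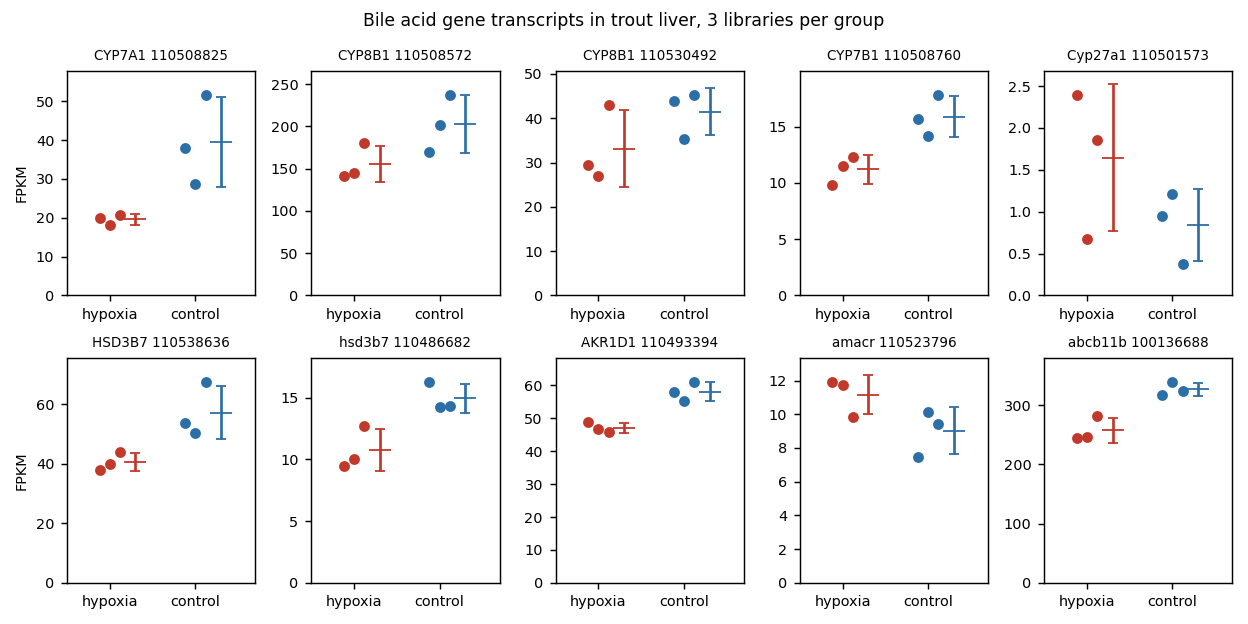
Transcript level (FPKM, vertical axes from 0) of the 10 tested bile acid loci in the 3 hypoxia libraries (red, left) and the 3 control libraries (blue, right), with group means and SD beside the points. The groups do not overlap for CYP7A1, CYP7B1, both HSD3B7 loci, AKR1D1 and abcb11b, and they overlap for both CYP8B1 loci, Cyp27a1 and amacr.

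CYP7A1 catalyses the rate-limiting step of the classic route. The expressed locus, NCBI gene 110508825, stood at 19.9, 18.0 and 20.8 FPKM in the hypoxia libraries, against 38.0, 28.6 and 51.7 FPKM in the control libraries. All hypoxia libraries lay below all control libraries, and the control libraries were the more scattered, at 19.6 ± 1.41 FPKM in hypoxia and 39.4 ± 11.6 FPKM in control (SD, n = 3 each). The log2 fold change was -1.04 with an SE of 0.20 (edgeR adjusted p = 0.0141), and in the authors' deposited table it was -1.01 with an adjusted p of 2.34e-05. Control library 3, the highest, carried part of the size: without it the log2 fold change was -0.76 (adjusted p = 0.0304). Leaving out hypoxia library 1, 2 or 3 kept the fold change between -1.07 and -1.01 and ended the call, with adjusted p values of 0.0656, 0.0609 and 0.0526. The other CYP7A1 locus, 110530204, was listed at 0 in all hypoxia libraries and at 0.021 FPKM in 1 control library.

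CYP8B1 decides how much of the product becomes cholic acid, and it was the most abundant enzyme among the members, from a pair of expressed loci. The higher locus, 110508572, had 141, 145 and 179.9 FPKM in hypoxia libraries, against 169, 201 and 237 FPKM in control libraries. Hypoxia library 3 reached above control library 1, so the groups overlapped, and the log2 fold change of -0.41 (SE 0.17) had an edgeR adjusted p of 0.164. The lower locus, 110530492, averaged 33.1 ± 8.66 FPKM in hypoxia and 41.5 ± 5.38 FPKM in control (SD, n = 3 each), with a log2 fold change of -0.35 (SE 0.18, adjusted p = 0.253). The balance between these copies differed between groups by less than the spread between libraries: the log2 ratio of the lower to the higher locus was -2.25 ± 0.18 in hypoxia and -2.28 ± 0.29 in control (SD, n = 3 each), a difference of 0.031 (exact two-sided permutation test, p = 0.9, the smallest possible being 0.1).

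The alternative route was represented by CYP7B1, the oxysterol hydroxylase, and by Cyp27a1, the mitochondrial sterol hydroxylase. CYP7B1 locus 110508760 had 9.80, 11.5 and 12.3 FPKM in hypoxia libraries, against 15.7, 14.2 and 17.8 FPKM in control libraries. The groups did not overlap, but the log2 fold change of -0.53 (SE 0.15) did not pass the threshold, with an edgeR adjusted p of 0.0589. The second CYP7B1 locus, 110530280, averaged 0.207 ± 0.110 FPKM in hypoxia and 0.231 ± 0.038 FPKM in control (SD, n = 3 each), below the level tested. Cyp27a1 was expressed far below its partners in this route. Its highest locus, 110501573, had 2.40, 0.679 and 1.85 FPKM in hypoxia libraries, against 0.945, 1.21 and 0.371 FPKM in control libraries, which rest on 8 to 31 counts per library. Hypoxia library 2 lay among the controls, and the log2 fold change of 0.83 had a wide SE of 0.44 (adjusted p = 0.280). The other 3 loci with the symbol Cyp27a1 are described in the file as cytochrome P450 27C1, a relative known in zebrafish for retinoid desaturation, and each averaged under 0.5 FPKM.

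HSD3B7 oxidises the ring hydroxyl that the intermediates keep from cholesterol and moves the neighbouring double bond, and it was expressed from 2 loci. The higher, 110538636, had 37.9, 40.0 and 44.0 FPKM in hypoxia libraries, against 53.7, 50.4 and 67.5 FPKM in control libraries. The lower, 110486682, had 9.49, 10.1 and 12.7 FPKM in hypoxia libraries, against 16.3, 14.2 and 14.3 FPKM in control libraries. For both copies all hypoxia libraries lay below all control libraries, with log2 fold changes of -0.53 (SE 0.15, edgeR adjusted p = 0.0607) for the higher and -0.50 (SE 0.14, adjusted p = 0.0555) for the lower. With the counts of both copies summed into 1 row, the log2 fold change was -0.52 with an adjusted p of 0.0540. The log2 ratio between the copies was -1.93 ± 0.12 in hypoxia and -1.93 ± 0.27 in control (SD, n = 3 each).

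AKR1D1, the reductase that bends the junction of the steroid rings into the form found in bile acids, varied little within groups. Its single locus, 110493394, had 48.8, 46.7 and 45.9 FPKM in hypoxia libraries, against 58.1, 55.4 and 61.1 FPKM in control libraries. The groups did not overlap, and the log2 fold change was -0.33 (SE 0.12, edgeR adjusted p = 0.131). The racemase amacr, locus 110523796, had 11.9, 11.7 and 9.84 FPKM in hypoxia libraries, against 7.48, 10.1 and 9.45 FPKM in control libraries. Hypoxia library 3 lay below control library 2, and the log2 fold change of 0.28 (SE 0.16) had an adjusted p of 0.333. A second AMACR locus, 110536809, was listed at 0 in all 6 libraries.

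ABCB11, the bile salt export pump, was the most abundant member in both groups. Locus abcb11b (100136688) had 245, 246 and 282 FPKM in hypoxia libraries, against 317, 339 and 324 FPKM in control libraries. All hypoxia libraries lay below all control libraries, and the log2 fold change of -0.36 (SE 0.13) had an edgeR adjusted p of 0.110. The other ABCB11 loci were at or near 0: abcb11a (110501479) did not exceed 0.02 FPKM in any library, and 118936376 was listed at 0 in all 6. SLC10A1 carries most hepatic uptake of conjugated bile salts in mammals, and the loci with this symbol were close to undetected in this trout liver. Loci described as this carrier under another symbol were not searched for. The 3 SLC10A1 loci averaged 0.090 to 0.247 FPKM in hypoxia and 0.040 to 0.298 FPKM in control. The 2 loci named Baat were as low, at 0.019 and 0.051 FPKM in hypoxia and 0.060 and 0.054 FPKM in control. These 5 loci are among the 13 member loci below the level tested, none of which held more than 17 counts in a library. A locus described as BAAT but with the symbol ACOT4, 110521328, was above that level and is given at the end.

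**Figure D2:**
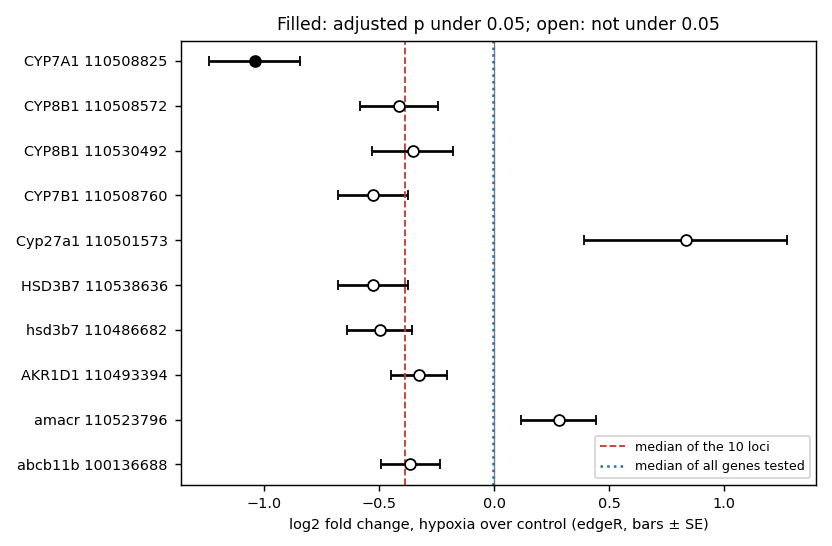
Log2 fold change of hypoxia over control (edgeR, horizontal axis, bars ± SE) for the 10 tested loci. CYP7A1 at -1.04 is the filled point with an adjusted p under 0.05, and the dashed median of the 10 loci (-0.39) lies left of the dotted median of all genes tested (-0.0046).

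How many loci were called depended on the test and on which libraries were kept. DESeq2 called 4 member loci lower (CYP7A1, both HSD3B7 loci and CYP7B1), against 4.34% of all genes, and edgeR without a filter on low values called 3, against 2.53%. The authors' deposited table lists the same 4 loci as DESeq2 with an adjusted p under 0.05, against 1.63% of all its rows and 3.45% of the genes tested here, with values of 0.0259 for HSD3B7 110538636, 0.0403 for CYP7B1 and 0.0414 for hsd3b7 110486682. Without control library 1, the one that lay apart, edgeR called 4 loci lower (CYP7A1, CYP7B1, HSD3B7 110538636 and CYP8B1 110508572), against 5.45% of all genes. Without hypoxia library 1, 2 or 3 the call of CYP7A1 was lost and no other was gained, in fits that called 127 to 203 of all genes lower. None of these fits called a member higher.

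The expressed members spanned a wide range of levels. Per length, the order in hypoxia was abcb11b, CYP8B1 110508572, AKR1D1, HSD3B7 110538636, CYP8B1 110530492, CYP7A1, CYP7B1, amacr, hsd3b7 110486682 and Cyp27a1. Within it HSD3B7 110538636 and CYP8B1 110530492 overlapped, as did CYP7B1, amacr and hsd3b7 110486682. In control the order was the same as far as CYP7B1, followed by hsd3b7 110486682, amacr and Cyp27a1, and the overlapping neighbours were AKR1D1 with HSD3B7 110538636, CYP8B1 110530492 with CYP7A1, and CYP7B1 with hsd3b7 110486682. CYP7A1 thus lay below the range of CYP8B1 110530492 in hypoxia and overlapped it in control. The 23 loci summed to 556, 557 and 654 FPKM in hypoxia libraries, against 722, 750.5 and 829 FPKM in control libraries, so the groups did not overlap. ABCB11 made up 43.2% to 44.1% of this sum in hypoxia and 39.0% to 45.2% in control libraries. CYP7A1 made up 3.18% to 3.57% in hypoxia and 3.82% to 6.23% in control libraries.

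Ratios within a library set CYP7A1 against its partners without dependence on library scaling. The log2 ratio of CYP7A1 to CYP8B1, loci of a name summed, was -3.26 ± 0.16 in hypoxia and -2.66 ± 0.33 in control (SD, n = 3 each), a difference of -0.60. Against ABCB11 it was -3.72 ± 0.080 in hypoxia and -3.09 ± 0.46 in control, a difference of -0.63. In both ratios all hypoxia libraries lay below all control libraries, and the exact two-sided permutation test gave p = 0.1, the smallest it can give with 3 libraries against 3 (0.2 after Benjamini-Hochberg adjustment over the 6 ratios computed). Against CYP7B1 the groups overlapped, with 0.78 ± 0.20 in hypoxia and 1.25 ± 0.26 in control and a difference of -0.47 (exact permutation p = 0.2, adjusted 0.3). The log2 ratio of amacr to CYP8B1 was -4.07 ± 0.37 in hypoxia and -4.76 ± 0.19 in control, a difference of 0.69 with no overlap (exact permutation p = 0.1, adjusted 0.2). These ratios were chosen after the values had been seen.

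**Figure D3:**
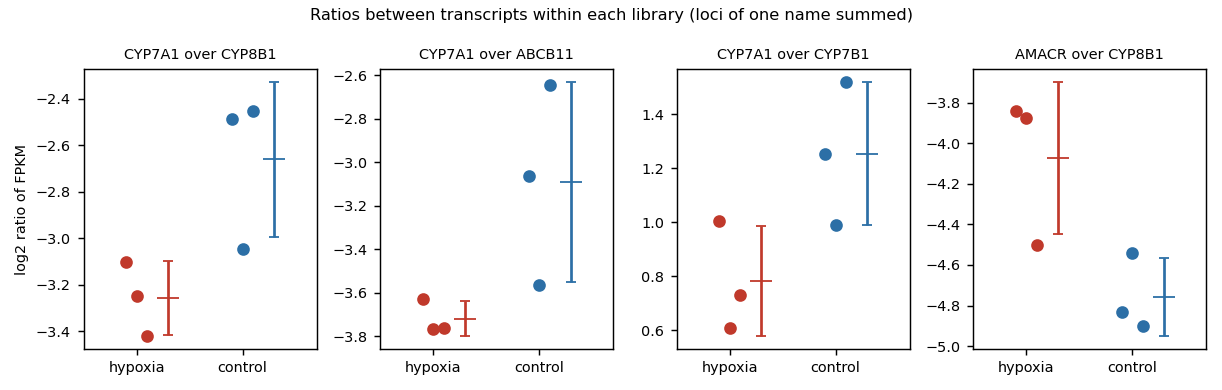
Log2 ratio of FPKM between members within each library (vertical axes, which do not start at 0), for the hypoxia libraries (red, left) and the control libraries (blue, right), with group means and SD beside the points. CYP7A1 over CYP8B1 and CYP7A1 over ABCB11 lie lower in every hypoxia library, and amacr over CYP8B1 lies higher in every hypoxia library.

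Salmonids carry many duplicate genes from an ancestral doubling of the genome, and the members differed in how many copies were in use. Of the 10 names, searched by symbol, 6 had 1 locus above the level tested, 2 (CYP8B1 and HSD3B7) had 2, and 2 (BAAT and SLC10A1) had none. Locus 110521328, described as BAAT under the symbol ACOT4, was above that level and is outside this count. By gene order in NCBI's table for assembly USDA_OmykA_1.1, from which no coordinates were taken, the expressed CYP7A1, CYP7B1 and CYP8B1 110508572 loci share a chromosome, with 58 protein-coding genes between CYP7A1 and CYP7B1 and 173 between CYP7B1 and CYP8B1. Their second copies share another chromosome in the same order, with 71 and 187 genes between them. On that second chromosome CYP8B1 110530492 was expressed, while CYP7A1 110530204 and CYP7B1 110530280 were below the level tested in both groups. The 2 Baat loci are direct neighbours. Where copies are close in sequence, the authors' counting could have split reads between them. With the loci of each name summed, CYP7A1 remained the name called lower, at a log2 fold change of -1.04 (edgeR adjusted p = 0.0140), and no other name passed. The CYP27A1 sum also held the 3 loci described as cytochrome P450 27C1, and locus 110501573 made up 83.2% of its FPKM.

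**Figure D4:**
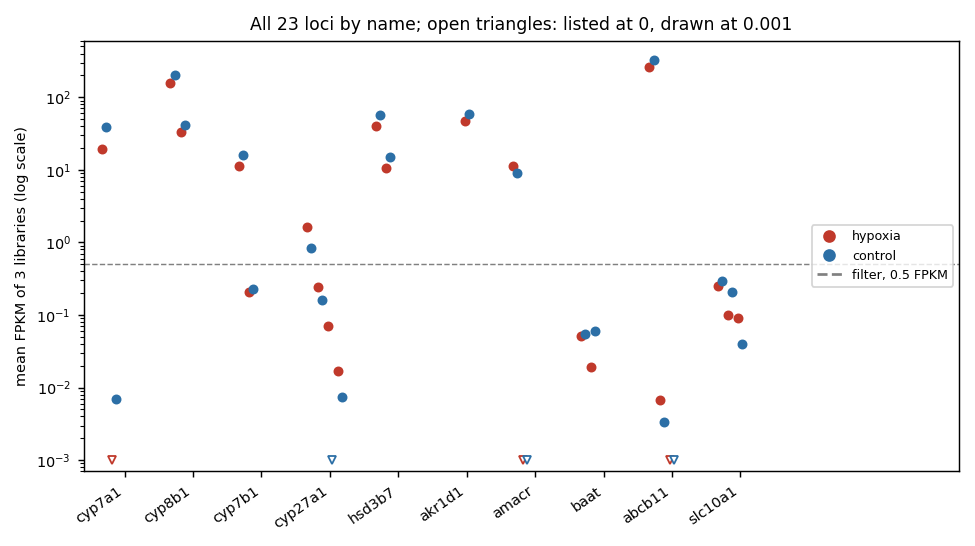
Mean level (FPKM of 3 libraries, log scale) of all 23 loci, grouped by name, in hypoxia (red, left of each pair) and control (blue, right). The 10 tested loci lie above the dashed line at 0.5 FPKM, and no locus with the symbol Baat or SLC10A1 does. Open triangles are group means listed at 0, drawn at 0.001 FPKM. The locus described as BAAT under the symbol ACOT4 is not drawn.

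Around the members, 260 loci of 7 lists cover other steps of bile acid and cholesterol handling. Of these 185 were tested, and 3 were called higher (1.62%) and 22 lower (11.9%) in hypoxia, with a median log2 fold change of -0.16. The shares over all genes tested, 3.39% lower and 3.83% higher, stand as the background for each list. The lists were chosen with earlier results of these data known, so contrasts with these shares are not independent of the values. With lists of 12 to 49 tested loci, a share of 7.69% to 8.33%, as for redox partners, receptors and binding proteins, rests on 1 to 4 loci. The count changed when a library was left out. Without control library 1 it was 36 lower and 8 higher, and with any other single library left out it was 4 to 5 lower and 0 to 1 higher. Over all genes the calls of lower were 1056 without control library 1 and 127 to 230 in the other such fits. These fits have fewer libraries, so lost power and the weight of a library were not told apart. Of the list genes named below with full values, abca1b, LIPA and the minor fabp1 locus kept their calls with each library left out, Nr0b2 lost its call in 3 of the 6 such fits (highest adjusted p = 0.0914), and CYP39A1, por, Nr1h3, abcg5, abcb4, ABCB1 and srebf1 kept theirs only without control library 1, with adjusted p values of up to 0.125 otherwise. In limma on log2(FPKM + 0.1, 0.5 or 1) the calls of abcb4, Nr1h3, ABCB1, pparab and CYP39A1 were lost as well, with adjusted p values of 0.0510 to 0.106. Several red blood cell, stellate and endothelial markers, mostly hemoglobin and collagen I loci, were lower in the same libraries, as given above. Among the 18 tested loci for other oxysterol and steroid enzymes, edgeR called 6 (33.3%) lower and 0 higher, with a median of -0.52. They were CYP39A1, a hydroxylase of oxysterols, and 5 loci of cyp3a27, a trout P450 of a family known for drug and steroid oxidation. CYP39A1 (110522269) had 24.3, 22.6 and 25.4 FPKM in hypoxia libraries, against 31.4, 44.6 and 36.9 FPKM in control libraries, a log2 fold change of -0.67 (adjusted p = 0.0275). The cyp3a27 loci share a symbol, and how far the authors' counting kept their reads apart is not known. Not called by edgeR were cyp3a27 loci 110514797 (79.8 FPKM in hypoxia and 121 FPKM in control), 110514645, 110492562 and 118940217. Their log2 fold changes were -0.67, -0.60, -0.37 and -0.18. Cyp46a1 loci 110529322, 110529323, 110529324 and 110529326 were not called either, at -0.043, -0.30, 0.82 and -0.52. DESeq2 called 8 of the 18 lower, against 4.34% of all genes tested, and 1 higher. The 22 tested loci of the peroxisomal list, whose genes shorten and activate the side chain, gave 0 calls in either direction in edgeR, with a median of -0.21. By its symbol ACOT4 the list includes locus 110521328, which is described as BAAT. At an edgeR unadjusted p under 0.05 there were 9 of the 22, against 11.6% lower and 12.1% higher over all genes tested. Among these 9, PEX5 (110489375), pex5 (110517910), scp2a, acaa1, Phyh, Abcd3 (110508842) and SLC27A2 (110514656 and 110514841) were all lower in hypoxia. In 8 of the 22 every hypoxia library lay below every control library in FPKM, and in 1 above. The shares over all genes tested were 13.1% below and 13.9% above. Against 4.34% of all genes tested, DESeq2 called 3 of these peroxisomal loci lower. The most abundant were scp2a, a sterol carrier and thiolase, at 118 ± 5.98 FPKM in hypoxia and 155 ± 6.02 FPKM in control (adjusted p = 0.0690), and Phyh, which starts the breakdown of branched fatty acids, at 73.2 ± 2.05 FPKM in hypoxia and 100.4 ± 16.2 FPKM in control (SD, n = 3 each, adjusted p = 0.0809). For both, the groups did not overlap.

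The P450 enzymes of the endoplasmic reticulum, CYP7A1, CYP7B1 and CYP8B1 among them, take their electrons from P450 reductase. Of the 13 tested redox partner loci, 1 (7.69%) was called lower and 0 higher, with a median of -0.16. The called locus was a P450 reductase, por (110507350), with 16.2, 18.7 and 18.5 FPKM in hypoxia libraries, against 23.3, 29.9 and 31.2 FPKM in control libraries. No hypoxia library reached the control range, and the log2 fold change was -0.69 (edgeR adjusted p = 0.0296). The other reductase loci were not called: porb (110503516), the most abundant, averaged 28.1 ± 1.17 FPKM in hypoxia and 46.4 ± 15.5 FPKM in control (log2 fold change -0.73, adjusted p = 0.0715), and POR (110537584) averaged 3.26 ± 0.19 FPKM in hypoxia and 3.06 ± 0.51 FPKM in control (SD, n = 3 each, log2 fold change 0.073, adjusted p = 0.811).

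Among receptors and regulators, 4 of 49 tested loci (8.16%) were called lower and 0 higher, with a median of -0.088. In mammals the bile acid receptor NR1H4 induces NR0B2, which in turn represses CYP7A1. Nr0b2 (110496393) had 42.8, 46.9 and 57.3 FPKM in hypoxia libraries, against 77.3, 97.6 and 71.0 FPKM in control libraries. Its groups did not overlap, and it was called lower with a log2 fold change of -0.76 (edgeR adjusted p = 0.0212), the same direction as CYP7A1. The other 3 tested Nr0b2 loci had log2 fold changes of -0.43, -0.28 and 0.27 and were not called. The 4 tested Nr1h4 loci had log2 fold changes of -0.02 to 0.23 and none was called, and fgf19, the hormone that in mammals signals bile acid return to the liver, averaged 3.89 ± 1.11 FPKM in hypoxia and 4.03 ± 1.54 FPKM in control (SD, n = 3 each, adjusted p = 0.900). The Nr1h4, fgf19 and further Nr0b2 loci were singled out after their values had been seen. Whether any of these genes had a part in the level of CYP7A1 was not tested. Also called lower were Nr1h3 (110506299), the oxysterol receptor, at 1.96 ± 0.079 FPKM in hypoxia and 2.97 ± 0.30 FPKM in control (log2 fold change -0.58, adjusted p = 0.0299), the fatty acid receptor pparab, and an rxrba locus. Further loci of these receptors were not called. The second nr1h3 locus, 100286817, averaged 3.45 ± 0.31 FPKM in hypoxia and 3.74 ± 0.24 FPKM in control (SD, n = 3 each, log2 fold change -0.16, adjusted p = 0.506). The locus pparab averaged 4.38 ± 0.76 FPKM in hypoxia and 6.49 ± 0.93 FPKM in control (SD, n = 3 each), whereas the more abundant PPARA locus, 110521393, had 26.4, 22.4 and 25.6 FPKM in hypoxia libraries, against 25.6, 13.7 and 8.94 FPKM in control libraries. Control library 1 lay at the level of the hypoxia libraries there, and the log2 fold change of 0.77 was not called (adjusted p = 0.115).

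Of 37 tested loci for other transporters and their helpers, 4 (10.8%) were called lower and 0 higher, with a median of -0.17. At the canalicular side, abcg5, a subunit of the pump that moves cholesterol into bile, had 20.4, 19.6 and 19.4 FPKM in hypoxia libraries, against 28.6, 32.3 and 27.5 FPKM in control libraries. The groups did not overlap, with a log2 fold change of -0.59 (edgeR adjusted p = 0.0214). Its partner subunit abcg8 (110499297) was more abundant and was not called, at 44.6 ± 7.20 FPKM in hypoxia and 47.2 ± 2.40 FPKM in control (SD, n = 3 each, log2 fold change -0.10, adjusted p = 0.705). The phospholipid flippase abcb4 averaged 21.0 ± 2.07 FPKM in hypoxia and 30.1 ± 1.95 FPKM in control (log2 fold change -0.53, adjusted p = 0.0301), and the drug efflux pump ABCB1 averaged 3.35 ± 0.54 FPKM in hypoxia and 5.27 ± 0.62 FPKM in control (SD, n = 3 each, log2 fold change -0.67, adjusted p = 0.0282). The fourth call was the prostaglandin carrier Slco2a1. In contrast to the loci with the symbol SLC10A1, slco1d1 and a slc51a locus of the basolateral side were abundant, named here after their values had been seen. Some other carriers of the list were low. For example, abcc3 (110498872) averaged 1.28 FPKM in hypoxia and 1.55 FPKM in control, and Slco2b1 (110533694) 0.574 and 0.552 FPKM. SLC22A7 (110502623) was listed at 0 in every library. The organic anion carrier slco1d1 averaged 297 ± 35.7 FPKM in hypoxia and 344 ± 28.3 FPKM in control (SD, n = 3 each, adjusted p = 0.354). The export subunit slc51a (110535440) averaged 138 ± 12.5 FPKM in hypoxia and 179 ± 12.8 FPKM in control (SD, n = 3 each, adjusted p = 0.104). Loci 110489577, 110510058 and 110534065, with the same symbol, did not exceed 0.016 FPKM in any library. The canalicular conjugate pump abcc2 averaged 33.2 FPKM in hypoxia and 35.5 FPKM in control (adjusted p = 0.739).

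Of the 12 tested binding protein loci 1 (8.33%) was called lower and 0 higher, with a median of -0.13. It was a minor locus of fabp1, the liver fatty acid binding protein, with 2.39, 1.32 and 0.737 FPKM in hypoxia libraries, against 5.16, 5.31 and 8.38 FPKM in control libraries (log2 fold change -2.11, edgeR adjusted p = 0.0122). The more abundant fabp1 locus, 110488072, averaged 333 FPKM in hypoxia and 359 FPKM in control and was not called (adjusted p = 0.672). The fabp10a loci of this list were more abundant still and were not called. Locus 110517089 averaged 4636 ± 601 FPKM in hypoxia and 5933 ± 879 FPKM in control (SD, n = 3 each, log2 fold change -0.38, adjusted p = 0.195). Locus 110488894 averaged 1329 FPKM in hypoxia and 1413 FPKM in control (log2 fold change -0.12, adjusted p = 0.708). Cholesterol supply was the list with calls both ways, 3 higher (8.82%) and 6 lower (17.6%) of 34 tested, with a median of -0.10. The sterol and lipid regulator srebf1 was called higher at 2 loci, of which 110538040 had 7.17, 7.84 and 6.80 FPKM in hypoxia libraries, against 5.27, 3.24 and 3.31 FPKM in control libraries (log2 fold change 0.88, adjusted p = 0.0178). The third call upward was insig1, which holds sterol regulatory proteins in the endoplasmic reticulum, at 28.0 ± 6.04 FPKM in hypoxia and 15.4 ± 4.40 FPKM in control (SD, n = 3 each). The other 2 loci with that symbol were not called, with log2 fold changes of 0.35 and 0.025. The former, 110501691, is described as insulin-induced gene 2 protein. Called lower were the cholesterol exporter abca1b, with 10.6, 13.3 and 12.4 FPKM in hypoxia libraries against 21.9, 29.3 and 32.6 FPKM in control libraries (log2 fold change -1.23, adjusted p = 0.00824), and the lysosomal lipase LIPA, with 7.58 ± 0.56 FPKM in hypoxia and 13.1 ± 0.85 FPKM in control (SD, n = 3 each, log2 fold change -0.81, adjusted p = 0.00882). The more abundant ABCA1 loci were not called: 110534463 averaged 89.3 ± 6.69 FPKM in hypoxia and 104.6 ± 8.03 FPKM in control (log2 fold change -0.25, adjusted p = 0.284), and 110498663 averaged 38.1 ± 6.35 FPKM in hypoxia and 50.4 ± 1.93 FPKM in control (SD, n = 3 each, log2 fold change -0.43, adjusted p = 0.0900). The remaining calls downward were the esterifying enzyme soat2, the ester hydrolase NCEH1 (110497068), the lipoprotein receptor SCARB1 and the lysosomal cholesterol carrier npc1 (110530510). For soat2, control library 1 had 30.1 FPKM against 65.7 and 75.6 FPKM in control libraries 2 and 3. Not called were NCEH1 loci 110495705 and 110535396 (log2 fold changes 0.074 and -0.17) and NPC1 locus 110508551 (-0.19). How these remaining calls fared with a library left out was not followed.

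**Figure D5:**
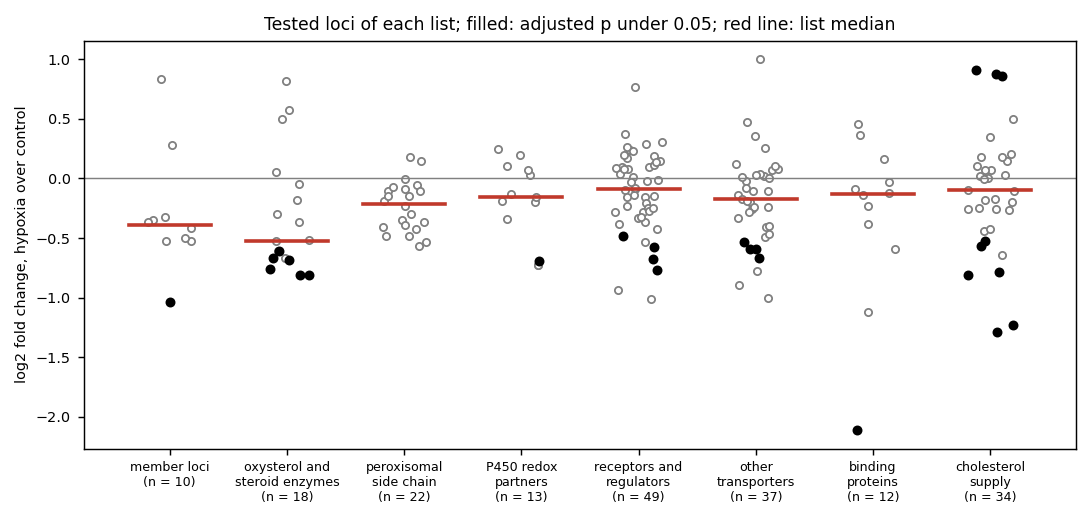
Log2 fold change of hypoxia over control (edgeR) for each tested member locus and each tested locus of the 7 surrounding lists, with list medians in red. Filled points have an adjusted p under 0.05, all of them lower in hypoxia except 3 in the cholesterol supply list.

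The pattern of CYP7A1 over the 6 libraries was set beside those of 14442 other genes averaging at least 1 FPKM. On the log2(FPKM + 0.5) scale the highest Pearson correlations were 0.997 for the monocarboxylate carrier SLC16A7, 0.995 for the growth factor igf2b and 0.994 for the peptide leap2. They are a description over libraries that also share the hypoxia and control labels. As the highest of 14442 values, each over only 6 libraries, they were picked for being high and were not tested. The growth factor igf2b had 25.0, 24.6 and 25.7 FPKM in hypoxia libraries, against 41.6, 33.3 and 57.5 FPKM in control libraries. Like CYP7A1, it was nearly level among the hypoxia libraries and was highest in control library 3 and lowest in control library 2 among the controls. The same order of control libraries held for leap2, with 27.2, 24.8 and 27.6 FPKM in hypoxia libraries against 36.0, 31.5 and 44.6 FPKM in control libraries. It also held for SLC16A7, over a narrower range than that of CYP7A1. SLC16A7 had 5.56, 5.54 and 5.71 FPKM in hypoxia libraries, against 7.07, 6.39 and 8.09 FPKM in control libraries.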

How the data were processed

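Per the labels, Trizol was used to extract total RNA from frozen trout liver, and 3 hypoxia and 3 control libraries were sequenced. The deposited table holds raw counts and FPKM values per gene, per the file headers, and the authors' log2 fold change, p-value and adjusted p-value. The submitters' processing notes list TopHat2 2.1.1 and Bowtie2 2.2.8 without saying what each was used for. The genome build, annotation, read counter and differential test used by the authors are not stated in the labels or headers, so no coordinates are printed. Of 42128 rows, 41896 had an NCBI gene number and 232 had none.

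The main test was edgeR 4.0.16 (quasi-likelihood, TMM, group only, two-sided) in R 4.3.3 on the deposited counts of genes averaging at least 0.5 FPKM, with Benjamini-Hochberg adjustment over all 19365 genes tested and a threshold of 0.05. It was tested on simulated data. The SE is the absolute unshrunken log2 fold change over the square root of F, and levels are the deposited FPKM. Replicates differed by more than counting noise (12.4 to 30.1 as chi-square over its degrees of freedom). A library's 3 counts equal 0.130 to 0.157 CPM, which covers counting error only.

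Alternatives were DESeq2 1.42.0, limma 3.58.1 on log2(FPKM + 0.1, 0.5 or 1), RLE and upper quartile scaling, filters of none and 1 FPKM, a replicate block, leaving out each library, and summing loci of a name. The members and lists were chosen with earlier results of these data known. Named genes are every member by level; of each list the 3 called loci of smallest adjusted p, or the 2 of highest level where none passed; and the 3 genes most like CYP7A1. Other list loci given with values (further copies and partners of called genes, Cyp46a1, fabp10a, insig1, soat2, slco1d1, slc51a, abcc2, abcc3, Slco2b1, SLC22A7, fgf19 and Nr1h4) were chosen after their values were seen. Marker lists covered hepatocytes, bile duct, exocrine pancreas, intestine, red blood cells, leukocytes, and stellate and endothelial cells. The small RNA table and sequences were not analysed here.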

Additional observations from a re-analysis of the deposited data

How the results depend on the processing

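No fold change of the 10 member loci, the 8 summed names or the 16 named list genes changed sign under any alternative. Of their 510 values, 420 kept their side of the threshold, 75 lost the call and 15 gained it. CYP7A1 kept its call under every alternative except the loss of a hypoxia library, with a log2 fold change of -1.04 to -0.94 in whole-group fits and -1.21 to -0.76 with a library left out. Members called lower were 4 with DESeq2 and 3 without a filter, against 1, and 0 to 4 with a library left out. All genes called were 771, 826 and 846 with limma (pseudocounts 0.1, 0.5 and 1), against 1398, of which 305, 317 and 323 were lower, against 657. Limma with 0.1 called 466 higher, against 741. With a library left out the totals were 361 to 2186, lower 127 to 1056 and higher 229 to 1130. List genes called lower were 10 in each limma fit, against 22, and 4 to 36 with a library left out. List genes called higher were 5 with DESeq2, 5 without a filter and 1 with limma at 0.1, against 3, and 0 to 8 with a library left out. Upper quartile scaling gave 565 lower and 824 higher. The largest shift of the median of all genes under another scaling was 0.024, with upper quartile scaling. The causes of these changes were not tested. The calls of abcg5, abcb4, ABCB1, Nr1h3, por, CYP39A1, srebf1 and cyp3a27 loci 110514644 and 110518927 were lost in 5 of 6 fits with a library left out. Only the fit without control library 1 kept them. The calls of Nr0b2 and pparab were lost in 3 of 6. The further cyp3a27 calls were not followed under the alternatives.

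With each gene's group mean subtracted, the remaining deviations of same-numbered libraries correlated at -0.054, 0.037 and -0.04. Pairs with different numbers gave -0.053 to 0.085. These values showed no pairing by replicate number, though so few libraries cannot exclude one. With the number as a replicate block, 1046 genes, 1 member (CYP7A1, log2 fold change -0.99, edgeR adjusted p = 0.0155), 15 list genes lower and 4 higher were called, and the calls of abcb4, Nr1h3 and ABCB1 were lost. These 3 calls, and those of pparab and CYP39A1, were lost in all 3 limma fits too. ABCB11 and AKR1D1, with unadjusted p of 0.0157 and 0.0210 (edgeR) and no overlap between groups, missed the threshold after adjustment over 19365 genes.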

Other observations

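The symbol and the description of a locus did not always name the same protein. Locus 110521328 carries the symbol ACOT4, a thioesterase, while its description names the bile acid conjugating enzyme BAAT. The symbol rule therefore left this locus out of the members and counted it in the peroxisomal list. It had 29.8, 27.9 and 31.2 FPKM in hypoxia libraries, against 27.4, 27.7 and 23.01 FPKM in control libraries. All hypoxia libraries lay above all control libraries, with a log2 fold change of 0.15 (SE 0.12, edgeR adjusted p = 0.496). It was singled out after its values had been seen, and its level was far above that of the 2 loci with the symbol Baat.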
